A study of Rattus norvegicus with 180 samples.

Results

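Tongue and esophagus were compared with gastrocnemial muscle to separate organs in which striated muscle lies beneath a stratified squamous epithelium from an organ that is muscle with its vessels, nerves and connective tissue. The samples were chosen by their labels alone: the 9 arrays of tongue, esophagus and gastrocnemial muscle of perfused animals 4, 5 and 6, out of 180 arrays of 55 organs. All came from male Sprague-Dawley rats aged 10 weeks, whose blood vessels had been rinsed with saline before the organs were taken. Each array measured total RNA of a single organ of a single rat, labeled with Cy3, on a customized rat miRNA array. For each rat, the mean of tongue and esophagus was set against the gastrocnemial muscle of the same rat (n = 3 rats), and both organs were also compared with it and with each other separately. The labels name the organ only, so the share of epithelium, muscle, gland and connective tissue in a sample is not known.

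MicroRNAs are short RNAs that pair with messenger RNAs through bases 2 to 8 of their 5′ end, the seed, and lower the output of those messages. In skeletal muscle a small set known as myomiRs is transcribed under muscle regulatory factors: miR-1 and miR-133 in heart and skeletal muscle, and miR-206 in skeletal muscle, above all in slow fibers. In stratified epithelium miR-203 favors the exit of keratinocytes from the cell cycle, and miR-205 is a marker of the basal layer. The miR-200 family keeps cells epithelial by repressing Zeb1 and Zeb2. The miR-10 and miR-196 genes lie inside the HOX clusters, which are switched on in order along the body axis. The rat esophagus, unlike the human one, has striated muscle along most of its length.

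The sequences of the miRNAs that separated the organs are shown from RefSeq (GRCr8), which held 13 of the 16 that were looked up. Each is written 5′ to 3′ with the seed in capitals. The first set marks epithelium, and each was called higher in tongue and esophagus except miR-200c, of which only the array entry for an older sequence was.
miR-203: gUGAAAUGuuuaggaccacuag
miR-205: uCCUUCAUuccaccggagucugu
miR-31: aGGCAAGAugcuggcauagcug
miR-141: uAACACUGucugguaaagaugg
miR-200c: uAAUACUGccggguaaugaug
miR-96: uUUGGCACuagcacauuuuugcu
miR-183: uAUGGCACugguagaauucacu
miR-203 lies at chr6:137020756-137020777 on the plus strand and miR-205 at chr13:107564588-107564610 on the minus strand. miR-141 at chr4:159209540-159209561 and miR-200c at chr4:159209969-159209989 start 429 bases apart on the minus strand of chromosome 4, and over their first 8 bases they differ only by U4C (miR-200c first, counted from the 5′ end). miR-96 at chr4:59755901-59755923 and miR-183 at chr4:59756106-59756127 start 205 bases apart on that strand and differ over their first 8 bases by U2A (miR-96 first).

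The second set joins 2 myomiRs with 4 miRNAs of the HOX clusters. These were brighter in gastrocnemial muscle than in tongue and esophagus, except that miR-10a-5p was brighter there than in tongue but not than in esophagus.
miR-206: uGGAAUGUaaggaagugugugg
miR-133b: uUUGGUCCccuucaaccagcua
miR-196a: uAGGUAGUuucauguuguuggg
miR-196b: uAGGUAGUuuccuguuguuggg
miR-10a-5p: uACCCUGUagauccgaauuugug
miR-10b: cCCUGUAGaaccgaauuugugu
miR-206 (chr9:30590747-30590768) and miR-133b (chr9:30594629-30594650) start 3882 bases apart on the plus strand of chromosome 9. miR-196a lies at chr7:135988900-135988921 on the plus strand between Hoxc10 and Hoxc9, and miR-196b at chr4:82661149-82661170 on the minus strand between Hoxa9 and Hoxa10. They share the seed AGGUAGU and differ over 22 bases by A12C (miR-196a first). miR-10a-5p lies at chr10:81779730-81779752 on the plus strand between Hoxb5 and Hoxb4. miR-10b, at chr3:80035886-80035907 on the plus strand, lies inside the annotated Hoxd4 gene. Probes for relatives this alike (miR-196a and miR-196b, miR-10a and miR-10b, miR-133a and miR-133b, miR-1 and miR-206, miR-200b, miR-200c and miR-429) may share signal, so their values are not independent of each other.

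Signal intensities are given after scaling each array, with values under 10.8 set to that floor. Detection asked for more than 50% of a miRNA's spots to stand well above background, and the test took 164 of 717 miRNAs, those that every array of some organ among the 3 detected. Detected miRNAs numbered 153 to 177 on the tongue arrays, 130 to 177 on the esophagus arrays and 110 to 168 on the gastrocnemial arrays, and the gastrocnemial arrays were the dimmer before scaling (75th percentile 772 to 1606, against 970 to 3034 in the other organs). The 9 arrays lay on 7 slides, and no slide held gastrocnemial muscle together with tongue or esophagus. Within these 9 arrays slide and organ therefore cannot be told apart in that comparison. An alternative fit over all perfused arrays allows for slide, but it links the gastrocnemial slides to those of tongue and esophagus only through arrays of other organs. The 9 scans fell on 3 days. The esophagus array of rat 6 stood apart from the other esophagus arrays, with lower muscle and higher epithelial miRNA signals, and results that rest on it are also given without it. For gastrocnemial rat 5 the labels give both 5 and 6 as the animal number, and the title was followed.

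Tongue and esophagus held the keratinocyte miRNAs miR-203 and miR-205 and 5 of 6 tested entries of the miR-200 family at signals that no gastrocnemial array reached. The myomiRs miR-1 and miR-133b were 7.05-fold and 4.76-fold lower in them than in gastrocnemial muscle, and miR-196a of the HoxC cluster, present in gastrocnemial muscle, was not detected in either organ. In this comparison 28 of 164 miRNAs were higher (17.1%) and 67 were lower (40.9%) at an adjusted p under 0.05 (limma with rat as a block, Benjamini-Hochberg over all 164). Of the 95 miRNAs called in either direction (57.9%), 20 higher and 47 lower ones also met the naming criteria, which asked for the same direction in each rat and no overlap between the 6 tongue and esophagus arrays and the 3 gastrocnemial arrays. Such a lack of overlap alone was seen for 20 of all 164 miRNAs in the higher direction (12.2%) and for 54 in the lower (32.9%). The miRNAs furthest up were epithelial, and those furthest down were miR-196a and miR-196b, followed by miR-1 and the miR-133 entries. The median difference over all 164 was -0.40 on the log2 scale, and it moved with the scaling between -0.40 and 0.45. Under the 6 scalings tried, 27 of the 28 higher miRNAs were called higher in all 6, while 11 of the 67 lower ones were called lower in all 6 and 22 changed sign in at least 1. In each of the 2 scan days that held all 3 organs, the 28 higher and 67 lower miRNAs had the same sign as in the full fit, which is a description only, since they were chosen on these same arrays.

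**Figure D1:**
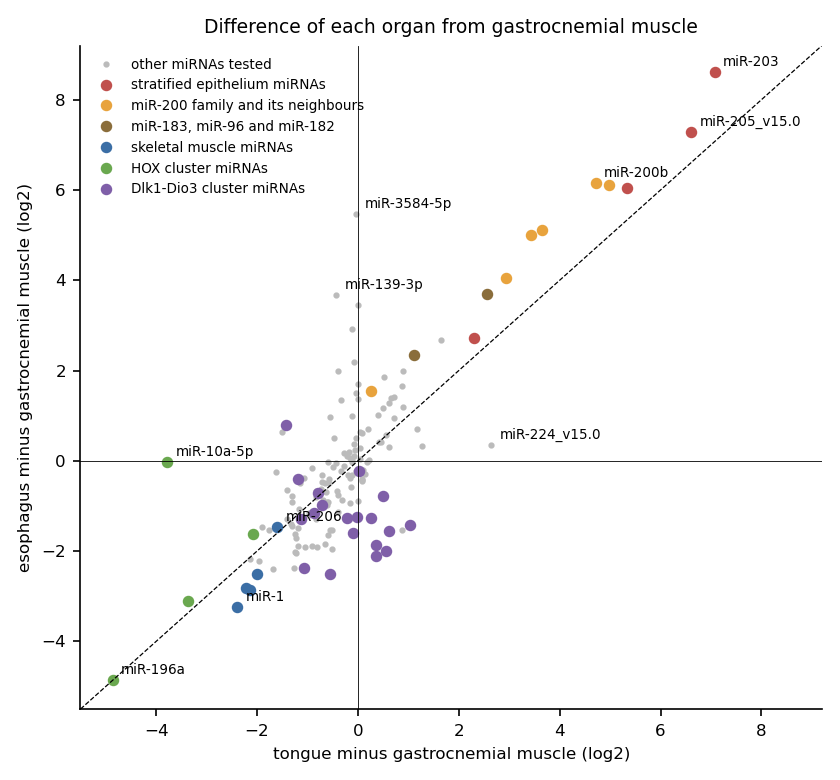
Log2 difference in scaled signal intensity from gastrocnemial muscle (n = 3 rats) in tongue, on the horizontal axis, and in esophagus, on the vertical axis, for the 164 miRNAs tested, with 6 lists in color and the line of equal differences dashed. Epithelial miRNAs lie at the upper right, myomiRs and miR-196a at the lower left, and miR-10a-5p is lower in tongue but near 0 in esophagus. Both axes share the gastrocnemial arrays.

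Of the 6 entries of the stratified epithelium list on the array, 4 were tested, among them both entries for miR-205. All 4 were higher in tongue and esophagus than in gastrocnemial muscle (17.1% of all 164 were). Each was detected on 0 or 1 of 3 gastrocnemial arrays and so entered the test through tongue and esophagus, which favors that direction. With no filter on dim miRNAs 3 of the 6 were called. The median log2 difference of the 4 was 6.32 beside -0.40 over all 164. The floor in gastrocnemial muscle sets the size of that median, which was 4.39 with the floor 4 times as high, 7.71 with a lower floor, higher still with the authors' table, and 3.1 with normexp background correction, where 3 of the 4 were called. It is therefore not a measured fold. miR-203, which promotes keratinocyte differentiation, reached 1509, 1637 and 1255 in the tongues of rats 4, 5 and 6 and 4725, 2012 and 7927 in the esophagi, and was not detected on any gastrocnemial array. A limit is given for such miRNAs, the mean of the bright organ over the lowest signal measured above background or the floor, whichever is higher: miR-203 was at least 144-fold higher in tongue and esophagus (adjusted p = 5.1e-06), at least 84.6-fold in tongue and at least 245-fold in esophagus. Every tongue and esophagus array lay above every gastrocnemial array. In a bulk sample, fewer cells of a type and less RNA per cell cannot be told apart, and this holds for each result here.

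miR-205, a miRNA of basal keratinocytes, was measured by 2 array entries, the later one and one made for an older version of its sequence. The later entry read 444, 602 and 318 in tongue and 842, 356 and 1196 in esophagus, was not detected in gastrocnemial muscle, and was at least 32.4-fold higher in tongue and esophagus (adjusted p = 3.3e-05). The older entry read 1256, 1363 and 913 in tongue and 2112, 993 and 3123 in esophagus. It was detected on 1 of 3 gastrocnemial arrays, at 14.5 in rat 4, and its log2 difference was 6.95 (SE 0.34, adjusted p = 5.1e-06). Both entries placed all tongue and esophagus arrays far above muscle. miR-31, an epithelial miRNA linked to keratinocyte proliferation, read 43.9, 95.6 and 36.1 in tongue and 111, 26.7 and 121 in esophagus. It was at least 3.57-fold higher than in gastrocnemial muscle, where it was not detected (adjusted p = 0.0053). In 4 of 27 alternatives it lost this call, among them normexp, the floor 4 times as high, and all perfused arrays with slide and replicate block. The tongue of rat 6 and the esophagus of rat 5 carried the least miR-205 of their organs. The summed signal of the 6 entries of the stratified epithelium list ran from 2543 to 3729 in tongue, from 3409 to 12404 in esophagus and from 65.0 to 68.7 in gastrocnemial muscle.

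Among all 55 organs, esophagus ranked 1st and tongue 8th for the mean signal of miR-203, and esophagus 1st and tongue 4th for the older entry of miR-205. The other organs with stratified epithelium were near these levels: miR-203 averaged 1952 ± 726 (SD, n = 3) in skin and 2138 ± 242 in the anterior stomach, which in the rat is lined with squamous epithelium. miR-203 was detected on 0 of 3 femoris muscle arrays and on 1 of 3 soleus arrays. Against these muscles in place of the gastrocnemial, miR-203 and both entries of miR-205 were also called higher.

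Of the 10 entries for the miR-200 family, 6 were tested and 5 were higher in tongue and esophagus (17.1% of all 164 were). No gastrocnemial array detected any of the 6, so each entered the test through tongue or esophagus, which favors that direction. Their median of 4.30 also rests on the floor. It was 2.3 with the floor 4 times as high, 6.3 with a lower floor, and 1.47 with normexp, where 2 of the 6 were called. With no filter on dim miRNAs 5 of the 10 were called, with a median of 2.2. The family keeps the epithelial state through Zeb1 and Zeb2, and it marks glandular as well as stratified epithelium. miR-200b read 280.0, 299 and 273 in tongue and 834, 329 and 1678 in esophagus and was not detected in gastrocnemial muscle, a difference of at least 27.2-fold (adjusted p = 3.8e-05). The tongue arrays were close together, and the esophagus arrays spread widely, rat 6 being highest. The entry for an older sequence of miR-200c was at least 29.3-fold higher, miR-200a at least 13.1-fold, miR-429 at least 11.7-fold and miR-141 at least 7.06-fold, all with adjusted p at or under 0.00014. The later entry for miR-200c had a log2 difference of 0.91 (SE 0.36, adjusted p = 0.060) and did not pass, though it was called higher in 5 of the 6 scalings. The summed signal of the 10 entries was 958 to 1065 in tongue and 1161 to 5131 in esophagus, and in gastrocnemial muscle all 10 stood at the floor.

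miR-96 and miR-183, which come from a single transcript and are best known from sensory cells, were the 2 tested members of their 5-entry list. Both were higher (17.1% of all 164 were). No gastrocnemial array detected either, so both entered the test through tongue and esophagus, which favors that direction. With no filter on dim miRNAs 1 of the 5 was called. miR-96 read 63.9, 67.9 and 59.9 in tongue and 122, 71.9 and 312 in esophagus, was not detected in gastrocnemial muscle, and was at least 5.49-fold higher (adjusted p = 0.00037). miR-183 read 25.4, 23.4 and 21.3 in tongue and 55.9, 26.8 and 110.0 in esophagus and was at least 2.07-fold higher (adjusted p = 0.0045). Without rat 4 the log2 difference of miR-183 was 1.68 and did not pass (adjusted p = 0.0504). With normexp and with the floor 4 times as high, neither miR-96 nor miR-183 passed, and their median was 0.568 and 0.705 in place of 2.42. With tongue alone against gastrocnemial muscle, 1 of the 2 passed (9.76% of all 164 were higher there). Over the 12 tested entries of these 3 lists, the esophagus of rat 6 was highest and that of rat 5 lowest among the esophagus arrays for all 12.

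**Figure D2:**
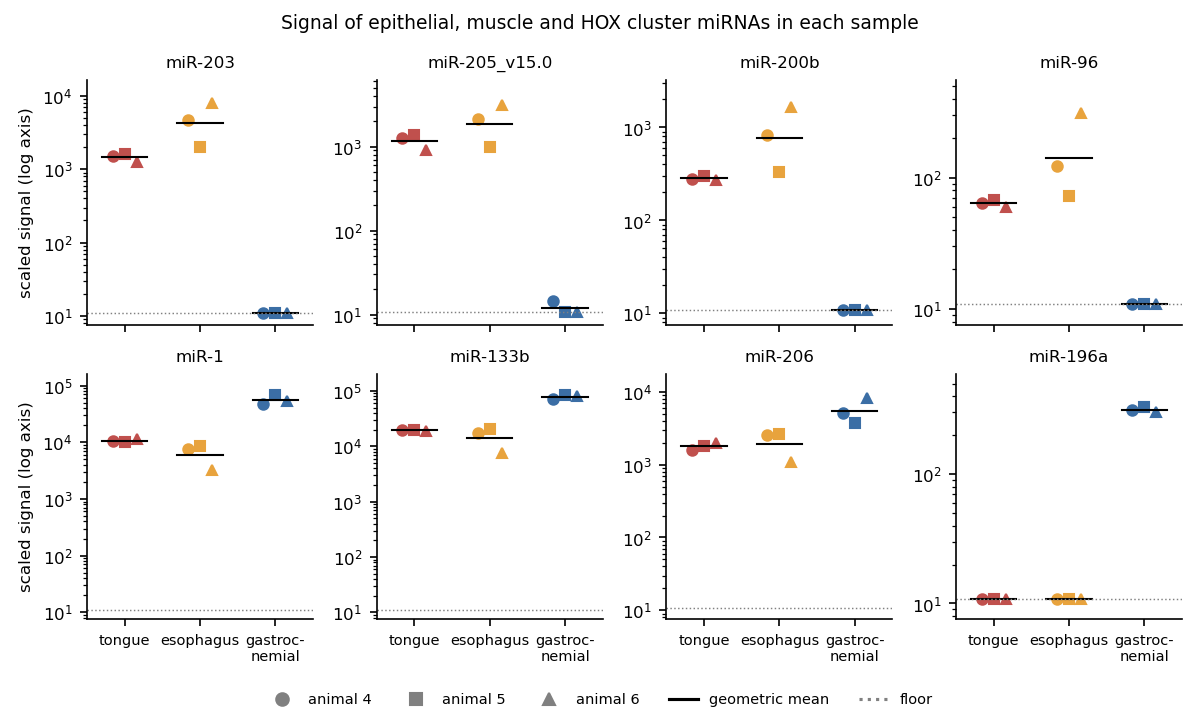
Scaled signal intensity (log axis) of 4 epithelial miRNAs, 3 myomiRs and miR-196a in tongue, esophagus and gastrocnemial muscle, with circles, squares and triangles for rats 4, 5 and 6, a bar at the geometric mean and a dotted line at the floor. miR-203, miR-200b and miR-96 lie at the floor in gastrocnemial muscle, where miR-1, miR-133b and miR-206 are highest, and miR-196a lies at the floor in tongue and esophagus.

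The tested muscle miRNAs were present in all 3 organs and highest in gastrocnemial muscle. Of the 12 entries on the skeletal muscle list, 5 were tested, all 5 were lower in tongue and esophagus (40.9% of all 164 were), and their median log2 difference was -2.50 beside -0.40 over all 164. miR-1, which favors muscle differentiation, read 10475, 10224 and 11448 in tongue, 7728, 8583 and 3195 in esophagus and 48184, 67983 and 54598 in gastrocnemial muscle. It was 7.05-fold lower in tongue and esophagus (log2 difference -2.82, SE 0.29, adjusted p = 0.00025), 5.26-fold in tongue and 9.45-fold in esophagus. The groups did not overlap, and the esophagus of rat 6 was the lowest array. The size of the difference depended on the processing, from -0.438 with quantile normalization to -6.2 with all perfused arrays and slide and replicate block. In that last fit, which allows for slide, the median of the list was -3.57 and 3 of the 5 were called.

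miR-133b, the partner of miR-206 on chromosome 9, read 19487, 19971 and 19216 in tongue, 17578, 20475 and 7441 in esophagus and 70632, 84364 and 80891 in gastrocnemial muscle, and was 4.76-fold lower in tongue and esophagus (log2 difference -2.25, SE 0.28, adjusted p = 0.00043). It was the brightest miRNA on 8 of the 9 arrays. On the remaining array, the esophagus of rat 6, miR-203 was brightest. miR-133a read 370.3, 464 and 321 in tongue, 365, 361 and 119 in esophagus and 1705, 2302 and 1418 in gastrocnemial muscle, with a log2 difference of -2.52 (SE 0.26, adjusted p = 0.00025), and miR-133a* from the other arm of its hairpin differed by -2.50 (SE 0.29, adjusted p = 0.00036). All 3 of these miR-133 entries were lower in every tongue and esophagus array than in any gastrocnemial array.

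miR-206, the skeletal muscle myomiR, differed least of the 5. It read 1575, 1810.3 and 1993 in tongue, 2593, 2662 and 1081 in esophagus and 5056, 3730.4 and 8316 in gastrocnemial muscle, and was 2.89-fold lower (log2 difference -1.53, SE 0.38, adjusted p = 0.011). In gastrocnemial muscle rat 5 had the lowest value and rat 6 the highest. Without rat 4 the difference was -1.63 and did not pass (adjusted p = 0.053). Of 28 alternatives, 7 ended its call, with values from -3.57 to -0.638: that one, 2 scalings, normexp (adjusted p = 0.129), the floor 4 times as high (0.0561), no filter on dim miRNAs (0.234) and the fit with slide and replicate block (0.0728). In the latter fit miR-133b was -4.98 and did not pass (adjusted p = 0.0741). miR-1 and miR-133b lost theirs under quantile normalization, which sets the brightest miRNAs of each array equal, and miR-133a and miR-133a* were called in all 6 scalings. None of the 5 differed between tongue and esophagus at the threshold, with a median tongue minus esophagus difference of 0.61. This depended on the scaling, since 3 of the 5 were called higher in tongue with the 75th percentile over all miRNAs (median 0.887) and 3 with no scaling (1.12), and without rat 6 the median was 0.193. Without the esophagus of rat 6 all 5 were still called lower, with a log2 difference of -2.59 for miR-1, -2.02 for miR-133b and -1.22 for miR-206. The summed signal of all 12 entries was 32463 to 33561 in tongue, 12076 to 32576 in esophagus and 127410 to 160960 in gastrocnemial muscle.

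Among the 55 organs, gastrocnemial muscle ranked 2nd after the femoris muscle for miR-1 and miR-133b, tongue 7th and esophagus 8th for both. For miR-206 the soleus, a slow muscle, ranked 1st (8599 ± 2362, SD, n = 3), gastrocnemial muscle 2nd, esophagus 5th and tongue 6th. With the soleus in place of the gastrocnemial muscle as the reference, the difference of tongue and esophagus was -1.61 for miR-1 and -2.17 for miR-206, and with the femoris muscle it was -3.09 and -1.48. The choice of reference muscle thus moved both values. The slow fiber miRNA miR-499 read 88.0, 13.6 and 109 in gastrocnemial muscle, where it was detected in 2 of 3 rats, and 11.9, 10.8 and 10.8 in tongue, where it was also detected in 2 of 3, was not detected in esophagus, and was not tested.

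Among the 67 lower miRNAs the fitted difference was largest for miR-196a, a miRNA of the HOX clusters. Of 11 entries 4 were tested, and all 4 were lower in tongue and esophagus (40.9% of all 164 were). miR-196a and miR-196b entered the test through gastrocnemial muscle alone, which favors that direction. With no filter on dim miRNAs 5 of the 11 were called lower. The median log2 difference of the 4 was -2.57, beside -0.40 over all 164, and the floor in tongue and esophagus enters it (-1.69 with the floor 4 times as high). With normexp it was -1.29 and 1 of the 4 was called. miR-196a was not detected in any tongue or esophagus array and read 312, 331 and 303 in the gastrocnemial muscle of rats 4, 5 and 6. It was at least 25.1-fold higher in gastrocnemial muscle than in tongue and esophagus (adjusted p = 5e-07). miR-196b, in the HoxA cluster, was likewise undetected in tongue and esophagus, read 129, 112 and 95.3 in gastrocnemial muscle and was at least 8.87-fold higher there (adjusted p = 3.3e-05). The 2 share their seed and differ by a single base, so the probe of one may read part of the other.

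miR-10b, in the HoxD cluster, was detected in all 3 organs. It read 228, 245 and 184 in tongue, 389.6, 410.2 and 170.3 in esophagus and 885, 1023 and 876 in gastrocnemial muscle, a log2 difference of -1.86 (SE 0.23, adjusted p = 0.00043). No tongue or esophagus array reached the gastrocnemial range. miR-10a-5p, in the HoxB cluster, split the 2 organs: it read 24.9, 26.9 and 24.6 in tongue, 358, 481 and 236 in esophagus and 366, 312 and 375 in gastrocnemial muscle. Esophagus and muscle overlapped (log2 difference -0.02, SE 0.26, adjusted p = 0.93), and tongue was below both. The log2 difference of tongue was -3.78 (SE 0.26, adjusted p = 5e-05) from muscle and -3.76 (SE 0.26, adjusted p = 0.00012) from esophagus. The difference between tongue and esophagus amounted to 13.5-fold and was tested directly. For the mean of tongue and esophagus all 4 HOX miRNAs were called lower under all 6 scalings. In esophagus alone 3 of the 4 were called lower (43.3% of all 164 were), 2 of them under all 6 scalings. miR-10a-5p was not lower there, so that its call in the mean rests on tongue. With all perfused arrays and slide and replicate block miR-10a-5p did not pass in the mean (-1.40, adjusted p = 0.0644).

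Other organs were read for the same miRNAs. miR-196a was detected on all 3 arrays in 16 of the 55 organs, averaging 332 ± 14.4 (SD, n = 3) in femoris muscle, 224 ± 27.3 in soleus and 119 ± 9.29 in skin. It was detected on none of the arrays of the interseptum, trachea or anterior stomach. miR-10a-5p averaged 834 ± 73.6 in interseptum and 1195 ± 67.9 in anterior stomach. All 3 hindlimb muscles held miR-196a, which tongue and esophagus did not. These are descriptions of organ means, and no test was made over them.

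**Figure D3:**
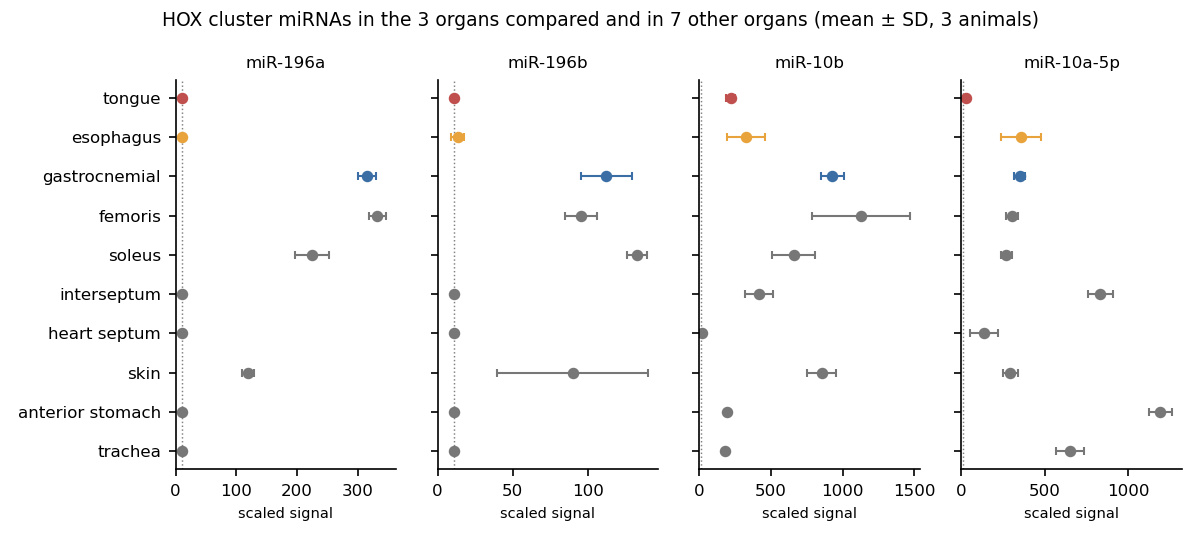
Scaled signal intensity (linear axis) of miR-196a, miR-196b, miR-10b and miR-10a-5p in the 3 organs compared and in 7 other organs, as the mean with the SD over 3 rats as bars and the floor as a dotted line. miR-196a is at the floor in tongue and esophagus and at 303 to 331 in gastrocnemial muscle, and miR-10a-5p is low in tongue but not in esophagus.

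Of 14 tested miRNAs linked to energy metabolism or fiber type, 8 were lower in tongue and esophagus (40.9% of all 164 were) and 1 was higher (17.1% of all 164), with a median of -1.21. miR-378, which lies in the Ppargc1b gene, read 705, 865 and 712 in tongue, 537, 565 and 259.7 in esophagus and 1619, 2076 and 1637 in gastrocnemial muscle (log2 difference -1.63, SE 0.22, adjusted p = 0.00071). miR-30a* and miR-30a, the 2 arms of a single hairpin, differed by -2.04 (SE 0.25, adjusted p = 0.00041) and -1.55 (SE 0.24, adjusted p = 0.0013). miR-22, a miRNA of heart and skeletal muscle, differed by -1.43 (SE 0.24, adjusted p = 0.0017), and miR-365 by -1.65 (SE 0.18, adjusted p = 0.00026). The 30a arms, miR-22, miR-365 and miR-378 were lower on all 6 tongue and esophagus arrays than on any gastrocnemial array. Against soleus in place of gastrocnemial muscle, miR-378 and miR-365 did not pass. The scaling left 3 of the 9 calls of this list in all 6 settings, miR-365 and miR-30a* among them.

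miR-675*, processed from the imprinted H19 transcript, which is high in skeletal muscle, read 27.6, 19.1 and 24.9 in tongue, 33.2, 33.7 and 10.8 in esophagus and 85.5, 152 and 85.0 in gastrocnemial muscle. It was detected on 2 of 3 esophagus arrays, and its log2 difference was -2.15 (SE 0.35, adjusted p = 0.0017). miR-29c*, also detected on 2 of 3 esophagus arrays, read 18.4, 21.6 and 19.5 in tongue, 16.6, 20.1 and 13.4 in esophagus and 63.0, 98.1 and 72.6 in gastrocnemial muscle, a log2 difference of -2.08 (SE 0.17, adjusted p = 8e-05). The 29 family represses collagen genes, and its tested members did not move together: miR-29b was higher in tongue and esophagus by 1.05 (SE 0.17, adjusted p = 0.0017).

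Among the 8 tested miRNAs of the proliferation-linked miR-17-92 and miR-106b-25 clusters, 4 were higher in tongue and esophagus (17.1% of all 164 were). None was lower (40.9% of all 164), and the median was 0.77. Of the 8, miR-17-5p, miR-19a and miR-93 entered the test through tongue and esophagus, which favors that direction. miR-17-5p read 39.8, 44.4 and 36.1 in tongue, 71.1, 45.2 and 101 in esophagus and 25.3, 24.3 and 16.7 in gastrocnemial muscle, and was at least 2.09-fold higher in tongue and esophagus, since no gastrocnemial array detected it (adjusted p = 0.0067). The log2 differences were 1.07 for miR-19a, 1.02 for miR-20a and 0.84 for miR-19b, and these 4 were called in all 6 scalings. All 4 belong to the miR-17-92 cluster. Probes for close relatives such as miR-19a and miR-19b may share signal, so these calls are not independent of each other. Without rat 4 none of the 8 passed, with adjusted p from 0.0504 for miR-17-5p to 0.083 for miR-19b among these 4, and 0 were called with normexp background correction, with no filter on dim miRNAs, or with all perfused arrays and slide and replicate block. With esophagus alone 6 of the 8 were higher than in gastrocnemial muscle by limma (21.3% of all 164 were). With tongue alone 0 were (9.76% of all 164), but this depended on the processing. In tongue miR-17-5p gained a call in 15 of 27 alternatives, miR-19a in 9 of 27, miR-20a in 8 of 28 and miR-19b in 7 of 28. The median of the 8 in tongue was 0.445 as reported and 1.5 with no scaling. Between tongue and esophagus none of the 8 was called, but 8 were lower in tongue under the 75th percentile scaling over miRNAs detected on all 9 arrays, 7 with all perfused arrays and replicate block, and 8 with slide and replicate block there. The p53 target miR-34a was higher in tongue and esophagus by 1.18 (SE 0.21, adjusted p = 0.0022), and miR-221, a repressor of Cdkn1b, by 1.45 (SE 0.45, adjusted p = 0.025). Without rat 6 the difference of miR-221 was 1.14 and did not pass (adjusted p = 0.0617).

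Markers of other cell types were read beside these results. Both endothelial miRNAs were lower in tongue and esophagus (40.9% of all 164 were). The log2 differences were -1.12 (SE 0.30, adjusted p = 0.015) for miR-126 and -1.25 (SE 0.26, adjusted p = 0.0051) for miR-126*. Their summed signals were 974 to 1281 in tongue, 275 to 877 in esophagus and 1490 to 1988 in gastrocnemial muscle. Neither was called lower under all 6 scalings, and without rat 4 neither passed (adjusted p = 0.116 for miR-126 and 0.0551 for miR-126*). Of 5 tested blood cell miRNAs 3 were lower and 0 were higher (40.9% and 17.1% of all 164), among them the red cell miR-451 (log2 difference -1.68, SE 0.21, adjusted p = 0.00043), and the summed signal of the 8 on the array was 621 to 734 in tongue, 356 to 592 in esophagus and 891 to 1177 in gastrocnemial muscle. None of these 3 calls held under all 6 scalings. The difference of miR-451 was 0.99 with all perfused arrays and slide and replicate block, and -0.649 against soleus (adjusted p = 0.0517). Of 2 tested nerve and glia miRNAs, 1 was lower (40.9% of all 164 were). This was miR-128 (log2 difference -1.35, SE 0.28, adjusted p = 0.0050), in 4 of the 6 scalings. The other, miR-338, ran the other way at 0.805 and did not pass, though it was called higher in 4 of the 6 scalings. On that list, 6 of the 8 were detected on no array. The part of these cell types in the results above was not tested.

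Of the 2 tested smooth muscle miRNAs neither passed, miR-143 differing by -0.13 (SE 0.25, adjusted p = 0.67), and the summed signals overlapped (1527 to 1715 in tongue, 1076 to 2203 in esophagus and 1435 to 1916 in gastrocnemial muscle). Of 8 tested fibroblast and mesenchymal miRNAs, 1 was higher (17.1% of all 164), 2 were lower (40.9% of all 164) and 5 did not pass, with a median of -0.50 beside -0.40 over all 164. Of the let-7 family, 4 of 8 were called lower (40.9% of all 164 were) with a median of -0.42, and all 4 changed sign under other scalings. No gland miRNA was tested: of the 4 on the array, 1 was detected on any of the 9 arrays, and the secretory cell miRNA miR-375 was detected on none. miR-210, a target of hypoxia signaling that was named after its values were seen, was higher, at 49.9, 59.5 and 51.0 in tongue and 117, 54.1 and 209.8 in esophagus against 23.4, 10.8 and 19.8 in gastrocnemial muscle, where it was detected in 1 of 3 rats (log2 difference 2.16, SE 0.34, adjusted p = 0.0015).

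**Figure D4:**
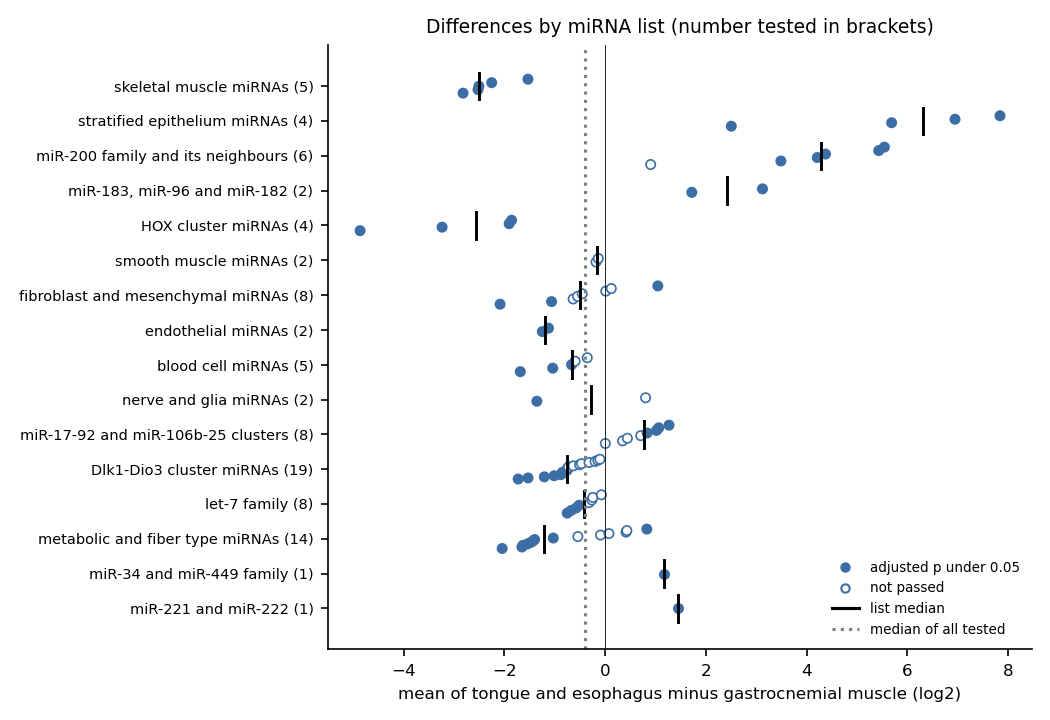
Log2 difference in scaled signal intensity between the mean of tongue and esophagus and gastrocnemial muscle for the tested miRNAs of each list, 1 row per list, filled where the adjusted p was under 0.05, with a bar at the list median and a dotted line at the median of all 164 tested (-0.40). The epithelial lists lie to the right and the skeletal muscle and HOX lists to the left of that line.

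Tongue and esophagus were then compared with each other. Of 164 miRNAs, 22 were higher in tongue (13.4%) and 20 were higher in esophagus (12.2%), or 42 in all (25.6%). The arrays of the 2 organs did not overlap for 25.6% of miRNAs in the first direction and 25.0% in the second. Against gastrocnemial muscle, 73 miRNAs differed in tongue (44.5%) and 106 in esophagus (64.6%). Without the esophagus of rat 6, 29 miRNAs differed between the organs in place of 42. Of the 22 higher in tongue, 12 were on the list of 37 entries for the large imprinted Dlk1-Dio3 cluster, which does not hold miR-411*, and of the 5 most raised in esophagus, 4 were brightest in pancreas or duodenum among the 55 organs. Many of these miRNAs were not detected on every array of 1 of the 2 organs.

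The Dlk1-Dio3 cluster, expressed from the maternal chromosome and abundant in brain and in developing muscle, had 19 of its 37 entries tested. Of these 12 were higher in tongue than in esophagus (13.4% of all 164 were) and 2 were lower (12.2% of all 164). The median was 1.29 beside -0.09 over all 164, and 13 of the 14 calls held under all 6 scalings. Several of the 19, such as miR-410 and miR-487b, passed the filter through tongue alone, so the filter itself favors the tongue direction. Over miRNAs detected on all 9 arrays 1 entry was left, and it was lower in tongue (-0.777). miR-136 read 49.2, 65.1 and 155 in tongue, 13.1, 13.6 and 13.7 in esophagus and 48.1, 62.0 and 52.7 in gastrocnemial muscle, and its tongue minus esophagus difference was 2.56 (SE 0.34, adjusted p = 0.0027). miR-299 read 93.2, 85.3 and 231 in tongue and 26.0, 22.7 and 18.3 in esophagus (log2 difference 2.47, SE 0.37, adjusted p = 0.0045), and miR-381 read 63.9, 53.9 and 153 in tongue and 20.6, 14.0 and 10.8 in esophagus (log2 difference 2.47, SE 0.42, adjusted p = 0.0068). For these 3 miRNAs the tongue of rat 6 was the highest array and no tongue array overlapped with esophagus, where they were detected in 2 of 3 rats. miR-127, which is antisense to the Rtl1 gene, differed by 2.24, miR-434 by 1.94 and miR-329 by 1.32. miR-411*, which was not among the 37, differed by 2.42 (SE 0.39, adjusted p = 0.0062), with 41.5, 49.8 and 131 in tongue and 14.6, 11.2 and 10.8 in esophagus. miR-494 of the same cluster ran the other way, at 34.0, 40.2 and 20.9 in tongue and 353, 81.5 and 98.1 in esophagus, with tongue detecting it in 1 of 3 rats (log2 difference -2.21, SE 0.43, adjusted p = 0.010).

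Against gastrocnemial muscle, 5 of the 19 were lower in tongue (34.8% of all 164 were) and 14 in esophagus (43.3% of all 164). Against these muscle arrays, which both comparisons share, miR-299 differed by 0.36 in tongue and -2.12 in esophagus. The count of cluster miRNAs higher in tongue than in esophagus fell from 12 to 7, 10 and 8 without rat 4, 5 or 6, to 9 without the esophagus of rat 6, to 4 with the authors' table, and to 0 with the floor set 4 times as high, with no filter on dim miRNAs and with normexp, where the median was -0.65. With differences within animals as the pairing it was also 0, at the same median of 1.29. miR-329 and miR-494 lost their calls without rat 4 (adjusted p = 0.0897 and 0.0662) and without rat 6 (adjusted p = 0.0609 and 0.0751). Of the 22 miRNAs higher in tongue, 11 were brightest in pituitary gland (50.0%) and 3 in thalamus among all 55 organs, beside 19 (11.6%) and 14 of all 164. In the sublingual gland, the only salivary gland given here, miR-136 averaged 354, miR-127 339.8 and miR-381 120.5. The part of gland tissue in the tongue values was not tested. Outside the cluster, the entry for an older sequence of miR-224 read 64.0, 106 and 45.9 in tongue and 11.8, 20.8 and 10.8 in esophagus, which detected it in 1 of 3 rats (log2 difference 2.29, SE 0.26, adjusted p = 0.0016).

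The 5 miRNAs most raised in esophagus over tongue were miR-3584-5p, miR-139-3p, miR-10a-5p, miR-327 and miR-192. miR-3584-5p read 1743, 305 and 438 in esophagus and 20.3, 10.8 and 11.6 in tongue, a tongue minus esophagus difference of -5.49 (SE 0.39, adjusted p = 0.00012). miR-139-3p read 517, 91.8 and 186 in esophagus and 14.8, 10.8 and 10.9 in tongue (log2 difference -4.10, SE 0.54, adjusted p = 0.0027). Tongue detected these 2 in 1 of 3 rats, at values at or near the floor of 10.8, so their sizes and order rest on the floor. Over the alternatives they ran from -5.83 to -3.06 for miR-3584-5p and from -4.61 to -1.99 for miR-139-3p. miR-327 read 268, 54.2 and 117 in esophagus, was not detected in tongue, and was at least 11.0-fold higher in esophagus (adjusted p = 0.0024). Rat 4 had the highest and rat 5 the lowest esophagus value of all 3. miR-192, a miRNA of intestinal epithelium, liver and kidney, read 179, 24.8 and 176 in esophagus and 11.2, 11.7 and 10.8 in tongue, which detected it in 2 of 3 rats (log2 difference -3.04, SE 0.64, adjusted p = 0.013). It did not pass without rat 4 (adjusted p = 0.126), rat 6 (0.0996) or the esophagus of rat 6 alone (0.0631).

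In pancreas miR-3584-5p averaged 262400 ± 128100 (SD, n = 3), miR-139-3p 7230 and miR-327 16100, all above every other organ, and in duodenum miR-192 averaged 25730. Of the 20 miRNAs higher in esophagus, 12 were brightest in pancreas among all 55 organs (60.0%), beside 24 of all 164 tested (14.6%). miR-3584-5p, miR-139-3p, miR-327 and miR-192 were detected on every esophagus array but not on every tongue array, so the filter itself can favor the esophagus direction. With no filter on dim miRNAs 0 miRNAs were called between tongue and esophagus, and 0 with normexp. The pancreas miRNAs miR-216a, miR-217 and miR-375, which averaged 5773, 3311 and 5873 in pancreas, were detected on none of the 9 arrays. Whether RNA of other organs had a part in these esophagus values was not tested.

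The epithelial and muscle miRNAs were also compared between the 2 organs. The median tongue minus esophagus difference was -0.69 for stratified epithelium, -1.37 for the miR-200 family and 0.61 for the muscle list. The tongue minus esophagus difference was -1.53 (SE 0.42, adjusted p = 0.037) for miR-203, and without the esophagus of rat 6 the difference was -1.03 and did not pass (adjusted p = 0.101). For miR-429 it was -1.56 (SE 0.43, adjusted p = 0.037), and without that array it was -1.02 and did not pass either (adjusted p = 0.101). The other tested epithelial and miR-200 entries did not pass, though the count for the miR-200 family moved from 1 of 6 lower in tongue to 5 with the 75th percentile over all miRNAs, 6 and 5 with the 75th percentile and the median over those detected on all 9 arrays, 6 with all perfused arrays and replicate block, and 6 without rat 5. Without rat 5 all 4 tested epithelial entries were lower in tongue. It was -1.34 (SE 0.24, adjusted p = 0.0071) for miR-34a and -0.97 (SE 0.22, adjusted p = 0.018) for miR-21, a miRNA of proliferating and injured tissue. miR-30e was higher in tongue by 1.03 (SE 0.22, adjusted p = 0.014), miR-128 by 1.09 (SE 0.33, adjusted p = 0.046) and the endothelial miR-126* by 1.18 (SE 0.30, adjusted p = 0.028). Without rat 4 none of these 7 passed, with adjusted p from 0.0793 for miR-34a and miR-126* to 0.206 for miR-203 and miR-429. Without rat 6 all but miR-34a failed to pass (adjusted p from 0.0751 to 0.183), and without the esophagus of rat 6 alone miR-128 (0.0628) and miR-126* (0.101) did not pass. miR-128 was also lost without rat 5 (0.0568).

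**Figure D5:**
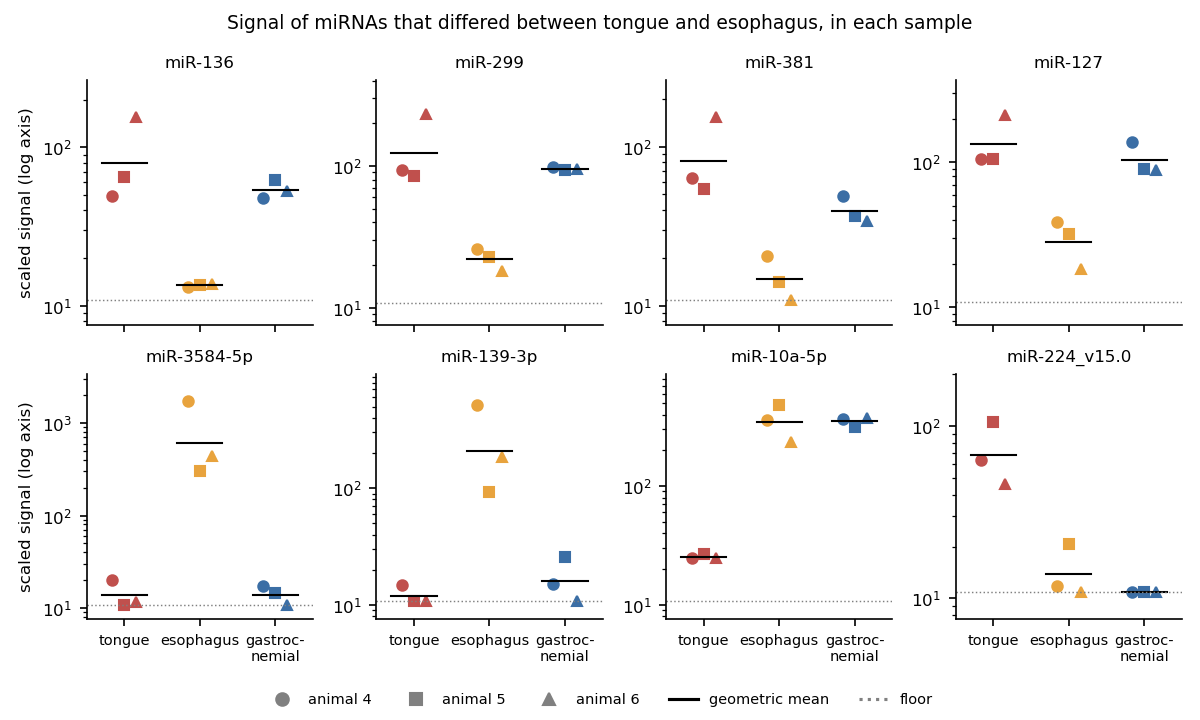
Scaled signal intensity (log axis) of 8 miRNAs that differed between tongue and esophagus, in tongue, esophagus and gastrocnemial muscle, with circles, squares and triangles for rats 4, 5 and 6, a bar at the geometric mean and a dotted line at the floor. Tongue and esophagus do not overlap in any panel, miR-3584-5p ranges from 305 to 1743 in esophagus, and miR-136 is at 13.1 to 13.7 there.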

How the data were processed

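The deposited data were 1-color miRNA arrays, of which 9 of 180 were compared. Per the paper's methods and the labels, total RNA was labeled with Cy3 and scanner images were read with Feature Extraction 10.7.3. The authors deposited, per array, a background-subtracted signal intensity for each of 14340 spots, together with their own normalized table, 1 value per miRNA, which served as an alternative. Spots called outliers (2.08% to 3.16% per array) were left out, spots were averaged per probe and probes per miRNA, and each array was divided by its 75th percentile, taken over 37 miRNAs found on all 180 arrays, and multiplied by 2118. A floor of 10.8 replaced lower values, and log2 was taken from the deposited intensities so scaled. No spot was saturated. The number of arrays (n = 3 per organ) limits the precision.

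Detection asked for more than 50% of a miRNA's spots to stand well above background. The 164 miRNAs that every array of some organ among the 3 detected were fitted with limma 3.58.1 in R 4.3.3, with a term per organ and rat as a block (4 residual degrees of freedom), and two-sided p-values were adjusted by Benjamini-Hochberg over all 164. The procedure was tested on simulated data. Arrays with one number come from one rat by their titles, but for gastrocnemial rat 5 another label gives 6. Exchanging 5 and 6 in the block does not cover the case in which these gastrocnemial arrays share a rat. Deviations from organ means correlated by 0.12 on average within a rat (-0.06 to 0.37) and by -0.06 between rats. The means come from the same 3 arrays, so the second average follows largely from the first and is no separate support for the pairing. With rat as a random term the fitted correlation was -0.013. Within an organ the 3 extracts come from separate rats by their titles. With rat as a block, p-values measure how far the differences between organs vary from rat to rat, together with variation between arrays and slides.

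The named miRNAs were the 3 markers, members of the lists where these are described, and, among miRNAs at an adjusted p under 0.05 that were detected on all arrays of the higher side, moved the same way in every rat and did not overlap, the 10 highest and 10 lowest against gastrocnemial muscle and the 5 highest and 5 lowest between tongue and esophagus. miR-210 lies outside this rule. Members and lists were chosen with earlier results of these data known. Where a miRNA was not well above background on any array of an organ, a lower limit of the fold change was computed from group means, with the highest of the floor, the lowest well-above-background signal and the miRNA's own signal on each dim array. Alternatives changed the scaling, background correction, floor, filter, block, slide, scan day, reference muscle and arrays used. The normexp alternative used the median signal and median background of each spot. Entries marked v15.0 in the array design are probes for an older sequence version.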

Additional observations from a re-analysis of the deposited data

Results flagged for a closer look

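For 21 of the miRNAs named above, the difference from gastrocnemial muscle was not the same in tongue and esophagus by a test of that difference itself, tongue minus esophagus on the log2 scale (limma, adjusted p under 0.05 over all 164). The difference was positive, so that tongue lay above esophagus, for miR-136 (2.56), miR-299 (2.47), miR-381 (2.47), miR-411* (2.42), miR-224_v15.0 (2.29), miR-127 (2.24), miR-434 (1.94), miR-329 (1.32), miR-126* (1.18), miR-128 (1.09) and miR-30e (1.03). It was negative, with esophagus above tongue, for miR-3584-5p (-5.49), miR-139-3p (-4.10), miR-10a-5p (-3.76), miR-327 (-3.46), miR-192 (-3.04), miR-494 (-2.21), miR-429 (-1.56), miR-203 (-1.53), miR-34a (-1.34) and miR-21 (-0.97). Of these 21, only miR-10a-5p, miR-203, miR-429, miR-34a, miR-21, miR-30e and miR-128 were detected on all 6 arrays of the 2 organs. The others were not well above background on 1 or more of these arrays. No tongue array detected miR-327, so its value is a limit set by the floor. Groups of 3 arrays were too small for a test of single outlying arrays.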

How the results depend on the processing

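Of the counts of calls, those that moved by over 1.5 times are given here (limma, adjusted p under 0.05). Against gastrocnemial muscle, the 95 calls of tongue and esophagus became 13 with normexp background correction, 60 with the floor 4 times as high, 56 over the miRNAs detected on all 9 arrays, 61 with no filter and 51 with all perfused arrays and slide and replicate block. The 73 calls of tongue became 4 with normexp, 47 over the miRNAs detected on all 9 arrays, 29 with no filter, 41 with all perfused arrays and slide and replicate block, 42 with the authors' table and 44 with the soleus as reference. The 106 calls of esophagus became 13 with normexp, 66 with the higher floor, 53 over the miRNAs detected on all 9 arrays and 57 with no filter. The 42 calls between tongue and esophagus became 0 with normexp (12 at an unadjusted p under 0.05), 0 with no filter (61), 1 with the higher floor (41), 18 over the miRNAs detected on all 9 arrays, 13 with the authors' table, 73 when scaled by the 75th percentile of those 9-array miRNAs, 86 with all perfused arrays and replicate block, and 98 with slide and replicate block there. Normexp added an offset of 50 before scaling, which raised the dim arrays more. The higher floor lay above many of the miRNAs dim in one organ, and fewer or more miRNAs were tested under the other filters.

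Leaving out rat 4, 5 or 6 gave 63 to 98 calls against gastrocnemial muscle for both organs together, 37 to 69 for tongue and 79 to 98 for esophagus, and 16 to 55 between tongue and esophagus. The fewest calls came without rat 4 in all 4 comparisons. Without the esophagus of rat 6, chosen after seeing the data, the 4 counts were 100, 87, 96 and 29.

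Without the replicate block the 4 counts were 98, 76, 102 and 39, and with gastrocnemial numbers 5 and 6 exchanged in the block they were 90, 68, 99 and 37. Differences within animals as the pairing gave 108, 87, 95 and 6. Slide as a random block gave 111, 76, 108 and 30, and scan day as a term, added after seeing the data, 80, 58, 84 and 36.

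The split of higher and lower calls followed the scaling, 28 and 67 as reported against 35 and 46, 66 and 21, 49 and 33, 38 and 55, and 58 and 13, in the order of the 75th percentile over all miRNAs, the 75th percentile and the median over those detected on all 9 arrays, quantile normalization and no scaling. The median over all 164 miRNAs was then -0.22, 0.31, 0.12, -0.21 and 0.45 in place of -0.40. The split in tongue was 16 and 57 as reported and 66 and 7 without scaling, and in esophagus 35 and 71 and 50 and 27.

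Single miRNAs called as reported or under the alternative changed direction in 16 cases, and the cause was not tested. With normexp the tongue minus esophagus difference was -0.56 for miR-126*, -0.11 for miR-136, -0.26 for miR-224_v15.0, -0.59 for miR-329, -0.0522 for miR-381, -0.21 for miR-411* and -0.000294 for miR-434, and esophagus minus muscle was 0.10 for miR-381 and 0.11 for miR-411*. Without scaling, miR-299 was 0.0312 in both organs together and miR-329 was 0.0858 in tongue. miR-10a-5p in esophagus reached 0.89 under that 75th percentile scaling, miR-378 in tongue 0.0291 against soleus, and miR-451 0.99, 0.82 and 1.16 (both organs, tongue, esophagus) with all perfused arrays and slide and replicate block. Over the results of single miRNAs, 5211 of the alternative values stayed on their side of the threshold, among which 176, called in neither, changed sign, while 549 lost the call, 248 gained one and 16 reversed. Depth here is signal over background, which limits the miRNAs near the floor.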
